A study of Arabidopsis thaliana with 6 samples.

Results

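The genes described here are 10 components of the Arabidopsis circadian clock: the pseudo-response regulators *PRR9*, *PRR7*, *PRR5*, *PRR3* and *TOC1*, the evening gene *GI*, and the evening complex genes *ELF3*, *ELF4* and *LUX* with the *LUX* homolog *BOA*. Their identifiers, with positions in the RefSeq TAIR10.1 assembly, are *TOC1* AT5G61380 (chr5:24674963-24678550, plus strand), *PRR3* AT5G60100 (chr5:24197971-24201415, minus), *PRR5* AT5G24470 (chr5:8356204-8358546, minus), *PRR7* AT5G02810 (chr5:637681-642030, minus) and *PRR9* AT2G46790 (chr2:19232607-19235179, plus). *GI* is AT1G22770 (chr1:8061751-8067790, plus), *ELF3* AT2G25930 (chr2:11058944-11063324, plus), *ELF4* AT2G40080 (chr2:16734294-16734953, minus), *LUX* AT3G46640 (chr3:17183042-17186959, plus) and *BOA* AT5G59570 (chr5:24003888-24007844, plus). They were chosen by name, as 10 of the 24292 genes in the deposited table of counts, a rule that uses no expression value. All 10 are in the table, and 9 had enough counts to be tested; *ELF4* did not. The study asked how the B3-domain repressors VAL1 and VAL2 control flowering in long and short days. RNA-seq was performed on dissected shoot apices of plants that were 6 wk old and had grown at 22 °C with 8 h of light and 16 h of darkness. The groups were *val1* (the mutant *val1-2*), libraries labelled *val2* (the mutant *val2-1*) and WT (Col-0), with 2 libraries each from 0.5 g of apices per library. Each mutant was represented by a single allele, and the number of plants behind a library is not given in the sources used here. The study's text calls the 2 libraries of a genotype biological replicates. The p-values set differences against the spread between such libraries, estimated over all 3 groups together and with information shared across genes.

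The plant clock is a loop of transcriptional repressors that are expressed one after another through the day. CCA1 and LHY act in the morning, the PRR proteins follow from morning to dusk and repress *CCA1* and *LHY*, and the evening complex of ELF3, ELF4 and LUX represses *PRR9*, *PRR7*, *LUX* and *GI* at night. GI stabilises the F-box protein ZTL, which targets TOC1 and PRR5 for degradation, and connects the clock to photoperiodic flowering. A single harvest therefore records one moment of an oscillation. The hour of harvest is not given in the sources used here, so a genotype effect and a difference in clock phase or hour of collection cannot be told apart.

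CCA1 and LHY bind the evening element, and LUX and BOA bind a shorter site. The 250 bases before the annotated start are shown for *TOC1*, *LUX* and *BOA*, which hold the evening element and were lower in *val1* than in WT. They are also shown for *PRR9*, which holds 2 G-boxes and had a log2 fold change of -1.06 in the libraries labelled *val2*. *PRR5* also holds the evening element, with a log2 fold change of -0.05 in *val1*. *PRR3*, *GI* and *ELF3* were lower in *val1* without it in this window. *PRR7*, *LUX* and *BOA* also hold a G-box, with log2 fold changes of 0.30, -0.26 and -0.14 in the libraries labelled *val2*. A link between motif and change was not tested. The sequences are those of the RefSeq TAIR10.1 assembly, written 5′ to 3′ on the strand of the gene. Capitals mark every match, on either strand, to the evening element AAAATATCT, the CCA1-binding site AAAAATCT, the G-box CACGTG, the LUX-binding sites GATACG and GATTCG, and the RY motif TGCATG bound by B3 proteins.
*TOC1* chr5:24674713-24674962, plus strand: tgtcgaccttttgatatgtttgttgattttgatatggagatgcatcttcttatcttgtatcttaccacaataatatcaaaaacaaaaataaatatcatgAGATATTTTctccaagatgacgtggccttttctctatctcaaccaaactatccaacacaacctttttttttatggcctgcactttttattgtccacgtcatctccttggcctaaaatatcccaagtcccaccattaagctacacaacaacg
*LUX* chr3:17182792-17183041, plus strand: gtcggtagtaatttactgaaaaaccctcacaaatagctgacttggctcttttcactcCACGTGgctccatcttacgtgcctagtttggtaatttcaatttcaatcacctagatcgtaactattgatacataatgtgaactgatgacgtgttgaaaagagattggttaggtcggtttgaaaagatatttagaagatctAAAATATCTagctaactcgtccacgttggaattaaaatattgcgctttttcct
*BOA* chr5:24003638-24003887, plus strand: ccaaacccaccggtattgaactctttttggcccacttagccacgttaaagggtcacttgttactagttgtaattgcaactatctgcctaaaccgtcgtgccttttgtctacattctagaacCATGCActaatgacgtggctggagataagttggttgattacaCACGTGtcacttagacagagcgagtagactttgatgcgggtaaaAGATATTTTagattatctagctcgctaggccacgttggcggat
*PRR9* chr2:19232357-19232606, plus strand: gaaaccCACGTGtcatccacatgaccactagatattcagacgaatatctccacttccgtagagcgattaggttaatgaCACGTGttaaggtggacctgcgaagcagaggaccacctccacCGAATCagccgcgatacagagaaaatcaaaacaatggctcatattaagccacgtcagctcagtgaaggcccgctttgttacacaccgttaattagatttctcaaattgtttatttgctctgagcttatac
The evening element occurred in the windows of 4 of the 10 genes, *TOC1*, *PRR5*, *LUX* and *BOA*, and in 2.36% of the same windows of 27443 protein-coding genes. The G-box occurred in *PRR7*, *PRR9*, *LUX* and *BOA*, and in 6.49% of all windows. The LUX-binding site occurred in *PRR9*, *ELF3* and *ELF4*, and in 12.1% of all windows. The RY motif occurred in *BOA* alone among the 10, and in 8.45% of all windows, and the CCA1-binding site in *PRR5* alone, and in 6.69%. The annotated model of *PRR5* is coding sequence only (1677 bases), so its window lies before the start codon. The evening element lay 151 to 143 bases before the start of *TOC1*, 53 to 45 before *LUX* and 43 to 35 before *BOA*. The G-boxes of *PRR9* lay 244 to 239 and 172 to 167 bases before its start. Within 1000 bases, the evening element was also found before *GI* and *ELF4*, making 6 of 10 genes against 7.24% of all genes. Over the same 1000 bases, the LUX-binding site was found for 8 of 10 genes (39.8% of all genes), the G-box for 4 (14.8%), the CCA1-binding site for 3 (*PRR5*, *PRR9* and *BOA*, 21.1%) and the RY motif for 3 (*TOC1*, *ELF3* and *BOA*, 32.2%). A match is a description of the letters in a window, and binding was not measured here.

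Libraries held between 22635808 and 33474422 counts. *VAL1* averaged 14.1 ± 2.26 counts per 1e6 (CPM, with libraries scaled by TMM) in *val1* and 47.9 ± 10.7 CPM in WT (SD, n = 2 each), a log2 fold change of -1.76. *VAL2* was higher in the libraries labelled *val2*, at 149.8 and 163.9 CPM, against 39.9 and 40.9 CPM in WT. A count per gene does not show whether the transcript is intact. It therefore does not settle the genotype of these libraries, and the cause was not tested. Every direction given for those 2 libraries is subject to this open point. The summed level of 10 touch and wound markers was 3320 and 3403 CPM in *val1*, 7249 and 7591 CPM in libraries labelled *val2* and 8607 and 8963 CPM in WT, and all 10 were lower in *val1* than in WT. The 8 leaf and photosynthesis markers summed to 9890 and 9699 CPM in *val1*, 7149 and 6658 CPM in those labelled *val2*, and 8532 and 7921 CPM in WT. At an adjusted p below 0.05 with edgeR, 6 of 8 were higher in *val1* than in WT, as were 23.6% of all tested genes. The other 2, *RCA* and *PSAN*, had log2 fold changes of 0.07 and 0.17 and did not pass. In those labelled *val2*, 6 of 8 were lower by the same test, as were 10% of all tested genes. There *LHCA1* and *LHCB3*, with log2 fold changes of 0.06 and -0.04, did not pass. The detected meristem markers summed to 174.8 and 168.8 CPM in *val1*, 166.5 and 154.8 CPM in libraries labelled *val2* and 154.6 and 143.6 CPM in WT, and *CLV1*, a receptor kinase gene of the meristem, was higher in *val1* than in WT (log2 fold change 0.33, SE 0.08, adjusted p = 0.00893 with edgeR). Only 2 of 5 flower markers were among the deposited counts, and they stayed below 1 CPM in sum. The root markers summed to between 178.7 and 314.1 CPM, almost all of it from *PYK10*. *COBL9* had 0 to 4 counts a library, and *RHD6* was absent from the deposited counts. Of the meristem markers, *CLV3* had 0 to 6 counts a library, and *WUS* was absent from the deposited counts. In bulk apices, fewer cells of a type and less RNA per cell cannot be told apart. The part of these marker differences in the results on clock genes was not tested.

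On the scale of CPM per kb of the longest RefSeq transcript, *PRR7* and *TOC1* were the most abundant of the 10 and *ELF4* the least in all 3 groups. *PRR7* had a level of 28.0 ± 0.13 CPM per kb in *val1*, 36.6 ± 2.36 in the libraries labelled *val2* and 29.7 ± 0.49 in WT (SD, n = 2 each). *TOC1* followed, with a level of 12.8 ± 1.36 in *val1*, 29.0 ± 4.05 in the libraries labelled *val2* and 27.2 ± 0.27 in WT. The gap between the first and the second gene was thus widest in *val1*. In WT the order below them was *GI*, *PRR9*, *ELF3*, *LUX*, *BOA*, *PRR3*, *PRR5* and *ELF4*. The neighbours *GI* and *PRR9*, and *BOA* and *PRR3*, lay within their SDs of each other there. In *val1* the order below *TOC1* was *PRR9*, *GI*, *ELF3*, *LUX*, *PRR3*, *PRR5*, *BOA* and *ELF4*. The neighbours *PRR9* and *GI*, *PRR5* and *BOA*, and *BOA* and *ELF4* were within their SDs. For the libraries labelled *val2* the order was *GI*, *ELF3*, *PRR9*, *LUX*, *BOA*, *PRR3*, *PRR5* and *ELF4*. There *PRR9* and *LUX*, *BOA* and *PRR3*, and *PRR3* and *PRR5* did not differ beyond their SDs. *BOA* thus stood seventh in the libraries labelled *val2* and in WT and ninth in *val1*. Levels of *PRR5* divide by its coding length, since its model has no annotated UTRs. They may be too high if its counts include reads from UTRs, and whether they do was not tested.

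**Figure D1:**
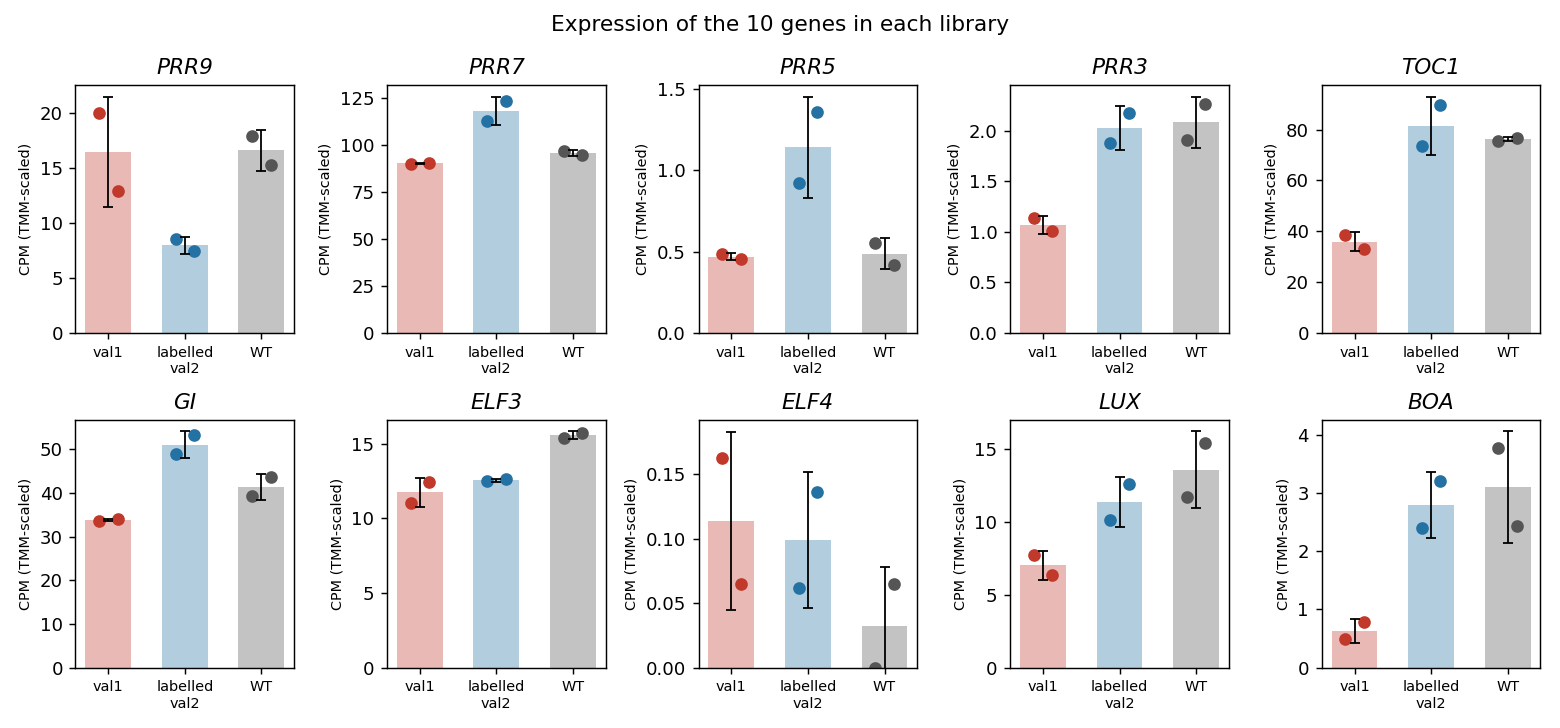
CPM of the 10 genes (each panel has its own linear axis from 0) in *val1*, the libraries labelled *val2* and WT. Points are the 2 libraries of a group, bars their mean and error bars the SD; *TOC1* and *BOA* were lowest in both *val1* libraries, and *PRR9* was lowest in both libraries labelled *val2*.

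In *val1* apices, 6 of the 9 tested genes fell relative to WT: *TOC1*, *PRR3*, *GI*, *ELF3*, *LUX* and *BOA*. In this comparison 45.7% of all tested genes were called, 22.1% lower and 23.6% higher. *BOA* and *TOC1* fell by at least 2-fold, as did 9.81% of all tested genes, while 5.89% were at least 2-fold higher (15.7% in all). None of the 9 was called higher, by edgeR or by DESeq2, and 0 had a positive change at an unadjusted p below 0.05. The median log2 fold change was -0.40 over the 9 genes and 0.04 over all tested genes. The same comparison called 10 of 10 touch and wound markers lower, 8 of them at least 2-fold. It called 6 of 8 leaf markers and 1 of 3 tested meristem markers higher. The part of these markers in the clock gene values was not tested. Adjusted p values here and in the paragraphs that follow are those of the quasi-likelihood test of edgeR, adjusted by the Benjamini-Hochberg method over 21140 genes, and a gene is called at an adjusted p below 0.05.

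*TOC1*, the dusk repressor and founding member of the PRR family, had 38.6 and 33.2 CPM in *val1*, against 75.7 and 76.8 CPM in WT. Both *val1* libraries were below both WT libraries. The log2 fold change was -1.09 (SE 0.11, adjusted p = 6.43e-05), and it stayed called when any 1 library was left out. *PRR3*, which binds TOC1 and slows its degradation, had 1.14 and 1.01 CPM in *val1* and 1.91 and 2.26 CPM in WT. The groups did not overlap, and the log2 fold change was -0.97 (SE 0.28, adjusted p = 0.0212). Without WT replicate 2, *PRR3* had an adjusted p of 0.108 by the same test, and it also lost its call without either *val1* library. With 28 to 70 counts a library, *PRR3* missed the threshold with DESeq2 too (adjusted p = 0.0669), and with limma on log2(TPM + 1) and log2(TPM + 0.1) (adjusted p = 0.0687 and 0.0651), but passed on log2(TPM + 1) with no filter on low values (adjusted p = 0.0287). The other 3 PRR genes, which act earlier in the day, were not called in *val1*. *PRR9* had 19.98 and 12.91 CPM in *val1* and 17.9 and 15.3 CPM in WT, so the WT values lay inside the range of *val1*. *PRR7* had 90.1 and 90.7 CPM in *val1* and 97.0 and 94.7 CPM in WT, with a log2 fold change of -0.09 (SE 0.08, adjusted p = 0.389). *PRR5* was scarce, with 0.49 and 0.45 CPM in *val1* and 0.56 and 0.42 CPM in WT.

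*GI* had 33.7 and 34.0 CPM in *val1*, against 39.3 and 43.6 CPM in WT. Both *val1* values were lower, with a log2 fold change of -0.29 (SE 0.08, adjusted p = 0.02). The call was lost without WT replicate 2 (adjusted p = 0.155) and without *val1* replicate 1 or 2 (adjusted p = 0.0628 and 0.0593), with scaling by library size alone and with limma on log2(TPM + 1) (adjusted p = 0.373). Of the evening complex, *ELF3* and *LUX* were also lower. *ELF3*, its scaffold, had 11.1 and 12.4 CPM in *val1* and 15.4 and 15.7 CPM in WT, a log2 fold change of -0.40 (SE 0.11, adjusted p = 0.0167). That call was lost without WT replicate 2 and without *val1* replicate 1 (adjusted p = 0.0683 and 0.0996), with scaling by library size alone and with limma on log2(TPM + 1) (adjusted p = 0.152). *LUX*, the DNA-binding subunit, had 7.74 and 6.33 CPM in *val1* and 11.7 and 15.4 CPM in WT. The log2 fold change was -0.96 (SE 0.18, adjusted p = 0.00242), and all 6 fits with 1 library left out kept the call.

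*BOA*, a *LUX* paralog that also binds *CCA1* regulatory DNA, had the largest fold change of the 9 genes. It had 0.49 and 0.78 CPM in *val1* (12 and 24 counts), against 3.77 and 2.42 CPM in WT (95 and 75 counts). The log2 fold change was -2.26 (SE 0.36, adjusted p = 0.000993), or 4.78-fold lower, and the call was kept with each library left out. *BOA* is uncertain, since 1896 of the 3957 bases of its annotated span (47.9%) overlap *UGT76E1* (AT5G59580), a glucosyltransferase gene on the opposite strand at chr5:24005949-24007907, and these bases make up 96.8% of *UGT76E1*. *UGT76E1* had 13 and 11 counts in *val1* and 84 and 232 counts in WT, so it too was lower in *val1*. The library kit keeps the strand, but whether the counting used it is not stated, and the part of *UGT76E1* reads in the *BOA* counts was not tested. *LUX* also overlaps a gene on the opposite strand, AT3G46650, over 1507 of its 3918 bases (38.5%). AT3G46650 had 8 and 9 counts in *val1* and 0 and 2 counts in WT. The part of its reads in the *LUX* counts was not tested. *ELF4*, the third subunit, had 4 and 2 counts in *val1*, 2 and 4 in libraries labelled *val2* and 0 and 2 in WT. A count of 0 allows up to 3 counts, or 0.119 CPM in that WT library, so no difference in *ELF4* was detectable at this depth.

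**Figure D2:**
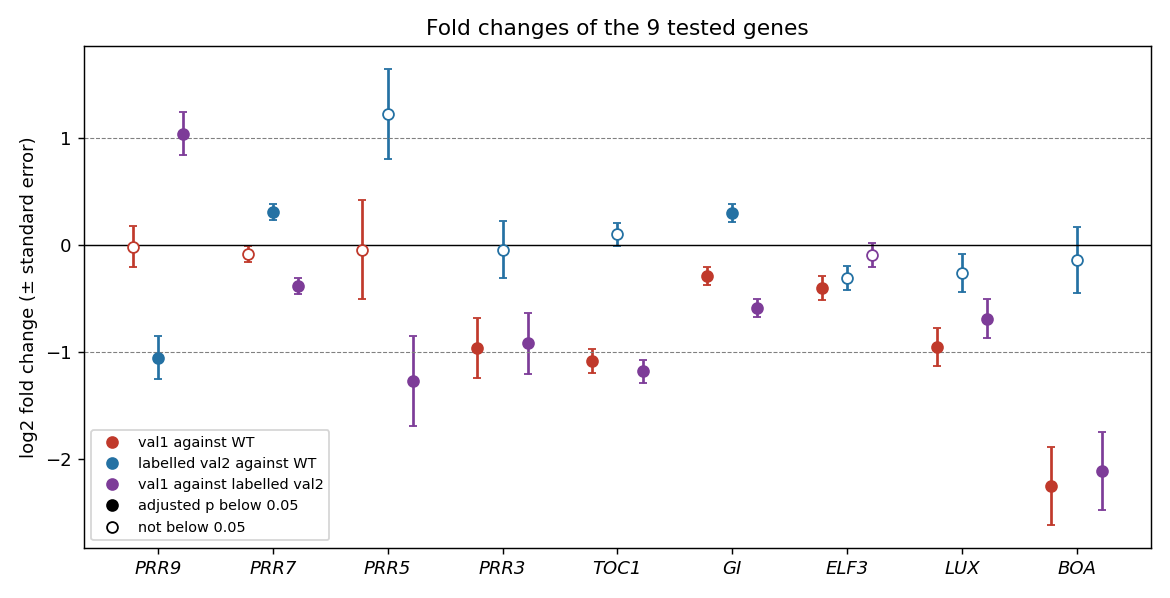
log2 fold changes of the 9 tested genes with standard errors, in *val1* against WT, in the libraries labelled *val2* against WT and in *val1* against those libraries. Filled points have an adjusted p below 0.05 and dashed lines mark a 2-fold change; *BOA* lies near -2 in both comparisons of *val1*.

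In the libraries labelled *val2*, where *VAL2* itself was higher than in WT, 3 of the 9 tested genes were called, and 18.7% of all tested genes were. *PRR7* and *GI* were higher than in WT, as were 8.69% of all tested genes, and *PRR9* was lower, as were 10% of all tested genes. The median log2 fold change was -0.04 over the 9 genes, against 0.00 over all tested genes. *PRR9*, the morning member of the PRR family, had 8.52 and 7.42 CPM in the libraries labelled *val2* and 17.9 and 15.3 CPM in WT. The groups did not overlap, and its log2 fold change was -1.06 (SE 0.20, adjusted p = 0.00859). This was the only one of the 9 called with at least a 2-fold change, a rule met by 3.18% of all tested genes (2.27% lower and 0.918% higher).

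*PRR9* is also uncertain, since 41.1% of its 50-base exon words also occur elsewhere on the nuclear chromosomes. AT2G46670, on the other strand of the same chromosome at chr2:19164357-19165233, was taken as the gene that shares sequence with it. How many of these words lie in AT2G46670 was not measured. AT2G46670 had 22 and 25 counts in the libraries labelled *val2* and 29 and 28 counts in WT. *PRR9* had 277 and 218 counts in the libraries labelled *val2* and 451 and 473 counts in WT. With the 2 genes summed, an alternative chosen after seeing the data, the log2 fold change was -1.01 (adjusted p = 0.0102 with edgeR). The *PRR9* call was lost without either library labelled *val2*, with an adjusted p of 0.0509 without replicate 1 and 0.0665 without replicate 2.

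*PRR7* had 112.8 and 123.6 CPM in the libraries labelled *val2* and 97.0 and 94.7 CPM in WT. Its log2 fold change was 0.30 (SE 0.07, adjusted p = 0.0241). *GI* had 49.0 and 53.2 CPM there and 39.3 and 43.6 CPM in WT, with a log2 fold change of 0.30 (SE 0.08, adjusted p = 0.0368). Both groups of values lay apart from each other for both genes, but each call was lost without any 1 of the 4 libraries compared, at adjusted p between 0.0545 and 0.196 from the same test. With DESeq2, *GI* missed the threshold (adjusted p = 0.0642). *PRR5* had 0.92 and 1.36 CPM in the libraries labelled *val2* and 0.56 and 0.42 CPM in WT, a log2 fold change of 1.23 (SE 0.42) that did not pass the test (adjusted p = 0.075). *ELF3* had 12.5 and 12.6 CPM there and 15.4 and 15.7 CPM in WT and also did not pass (log2 fold change -0.31, SE 0.11, adjusted p = 0.0864). *TOC1*, *PRR3*, *LUX* and *BOA* had log2 fold changes of 0.10 (SE 0.11), -0.04 (SE 0.27), -0.26 (SE 0.17) and -0.14 (SE 0.31), and the groups overlapped for each of them. Missing the threshold does not show that these genes were unchanged.

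The direct comparison of *val1* with the libraries labelled *val2* does not use WT values in its fold changes. It called 8 of the 9 genes, and 35.7% of all tested genes. In *val1*, 7 of them were lower, as were 18% of all tested genes, and *PRR9* was higher, as were 17.7%. *TOC1*, *PRR5* and *BOA* were at least 2-fold lower, as were 6.94% of all tested genes, and *PRR9* was at least 2-fold higher, as were 5.17% (12.1% in all). The median log2 fold change was -0.69 over the 9 genes and 0.01 over all tested genes. *BOA* had a log2 fold change of -2.12 (SE 0.36, adjusted p = 0.00193), and *UGT76E1*, its antisense neighbour, had 13 and 11 counts in *val1* and 55 and 121 counts in the libraries labelled *val2*. *TOC1* had a log2 fold change of -1.18 (SE 0.11, adjusted p = 5.89e-05). *GI* and *PRR7* differed by less, with log2 fold changes of -0.59 (SE 0.08, adjusted p = 0.000667) and -0.39 (SE 0.07, adjusted p = 0.00367). *PRR9* had 19.98 and 12.91 CPM in *val1*, against 8.52 and 7.42 CPM in the libraries labelled *val2*, a log2 fold change of 1.04 (SE 0.20, adjusted p = 0.00374).

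*LUX*, *PRR3* and *PRR5* were also lower in *val1* in this comparison with weaker support. *LUX* had a log2 fold change of -0.69 (SE 0.18, adjusted p = 0.0162), and lost the call without *val1* replicate 2 (adjusted p = 0.0944) or replicate 2 of the libraries labelled *val2* (adjusted p = 0.119). *PRR3* had a log2 fold change of -0.92 (SE 0.28, adjusted p = 0.0317), and lost the call without any 1 of the 4 libraries compared, at adjusted p between 0.0663 and 0.152, and with DESeq2 (adjusted p = 0.104). *PRR5* had a log2 fold change of -1.27 (SE 0.42, adjusted p = 0.0438) and lost the call without any 1 of the 6 libraries, at adjusted p between 0.0608 and 0.267. It was also lost with replicate numbers as a block, at an adjusted p of 0.0605 with edgeR, and with DESeq2 (adjusted p = 0.159). *ELF3* was the gene without a call, at 11.1 and 12.4 CPM in *val1*, against 12.5 and 12.6 CPM in the libraries labelled *val2*. Its log2 fold change was -0.09 (SE 0.11, adjusted p = 0.554).

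Ratios of counts between 2 genes of the same library do not depend on how libraries are scaled. *TOC1* to *CCA1*, the dusk and dawn repressors of the core loop, had a ratio of 0.214 and 0.242 in *val1*, 1.497 and 2.017 in libraries labelled *val2*, and 0.271 and 0.284 in WT. *GI* to *CCA1* had a ratio of 0.187 and 0.247 in *val1*, 0.997 and 1.20 in libraries labelled *val2*, and 0.141 and 0.161 in WT. Both ratios in the libraries labelled *val2* lay above every value of *val1* and WT. In those libraries *CCA1*, the shared denominator, had a log2 fold change of -2.56 against WT. *TOC1* and *GI* had 0.10 and 0.30 there, so the high ratios reflect mostly the lower *CCA1*. *PRR7* to *PRR9*, the later and the earlier PRR gene of the morning, had a ratio of 4.51 and 7.02 in *val1*, 13.2 and 16.7 in libraries labelled *val2*, and 5.42 and 6.20 in WT. Those of WT lay within the range of *val1*. In the libraries labelled *val2*, *PRR7* had a log2 fold change of 0.30 against WT and *PRR9* of -1.06. *TOC1* to *PRR7* was lowest in *val1*, at 0.429 and 0.367, against 0.652 and 0.725 in the libraries labelled *val2* and 0.781 and 0.811 in WT. *LUX* to *GI* was 0.230 and 0.186 in *val1*, 0.207 and 0.236 in libraries labelled *val2* and 0.298 and 0.354 in WT, so WT was highest. These are descriptions of 2 libraries a group with no test.

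**Figure D3:**
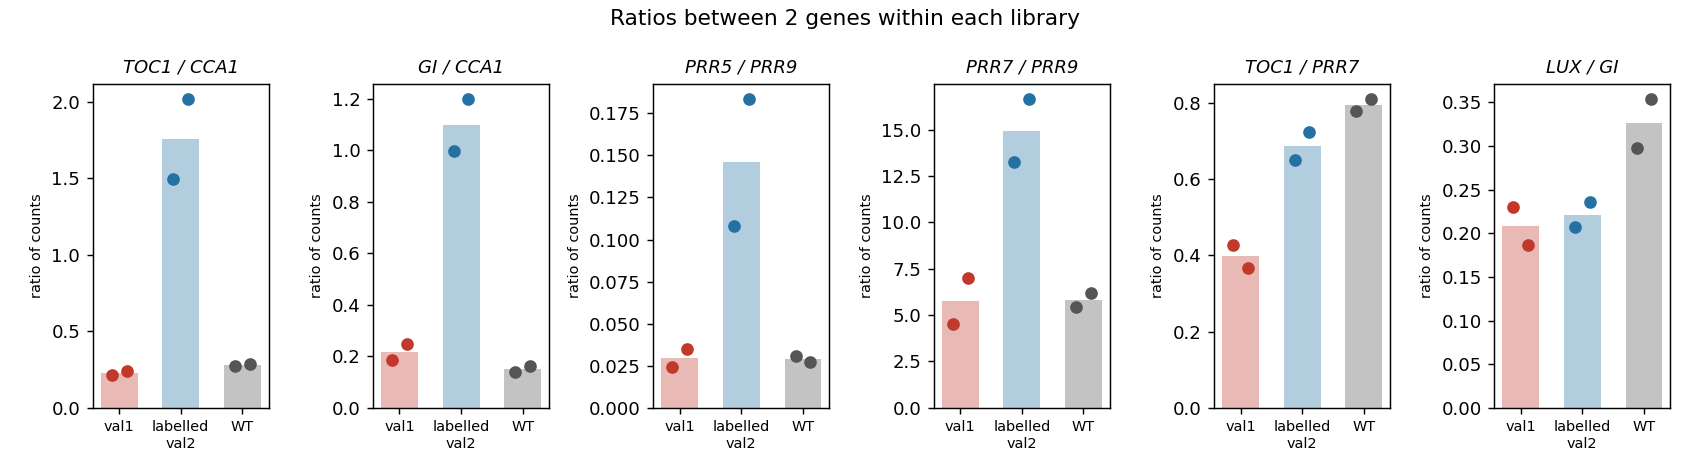
Ratios of the counts of 2 genes within each library (linear axes from 0), with points for the 2 libraries of a group and bars for their mean. The ratios to *CCA1* and to *PRR9* were highest in the libraries labelled *val2*, where *CCA1* and *PRR9* were lower than in WT. The ratio of *TOC1* to *PRR7* was lowest in *val1*.

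Other clock genes give the setting for these 10. Of 14 morning genes, which include *CCA1*, *LHY*, the *RVE* family of related MYB factors and the *LNK* coactivators, 9 fell in *val1* relative to WT, with a median log2 fold change of -0.55, against 22.1% of all tested genes that fell. In the libraries labelled *val2*, 10 of 14 fell relative to WT, 7 of them at least 2-fold, with a median log2 fold change of -1.11, against 10% of all tested genes lower and 2.27% at least 2-fold lower. *CCA1* had 180.1 and 137.4 CPM in *val1*, 49.1 and 44.4 CPM in libraries labelled *val2* and 279.5 and 270.6 CPM in WT. Its log2 fold change against WT was -0.79 (SE 0.12, adjusted p = 0.000733) in *val1* and -2.56 (SE 0.13, adjusted p = 1.58e-05) in the libraries labelled *val2*. *LHY* had log2 fold changes of -0.55 (SE 0.10) and -1.85 (SE 0.10) in the same order, and *RVE1*, a MYB factor that promotes auxin synthesis, of -1.56 (SE 0.16) and -3.08 (SE 0.17). All of these passed the test. In *val1* against the libraries labelled *val2*, 9 of the 14 were higher and 1, AT5G52660, was lower, against 17.7% and 18% of all tested genes. The 9 tested genes of the 10 and the morning genes thus differed between *val1* and the libraries labelled *val2* mostly in opposite directions, with medians of -0.69 and 0.67.

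**Figure D4:**
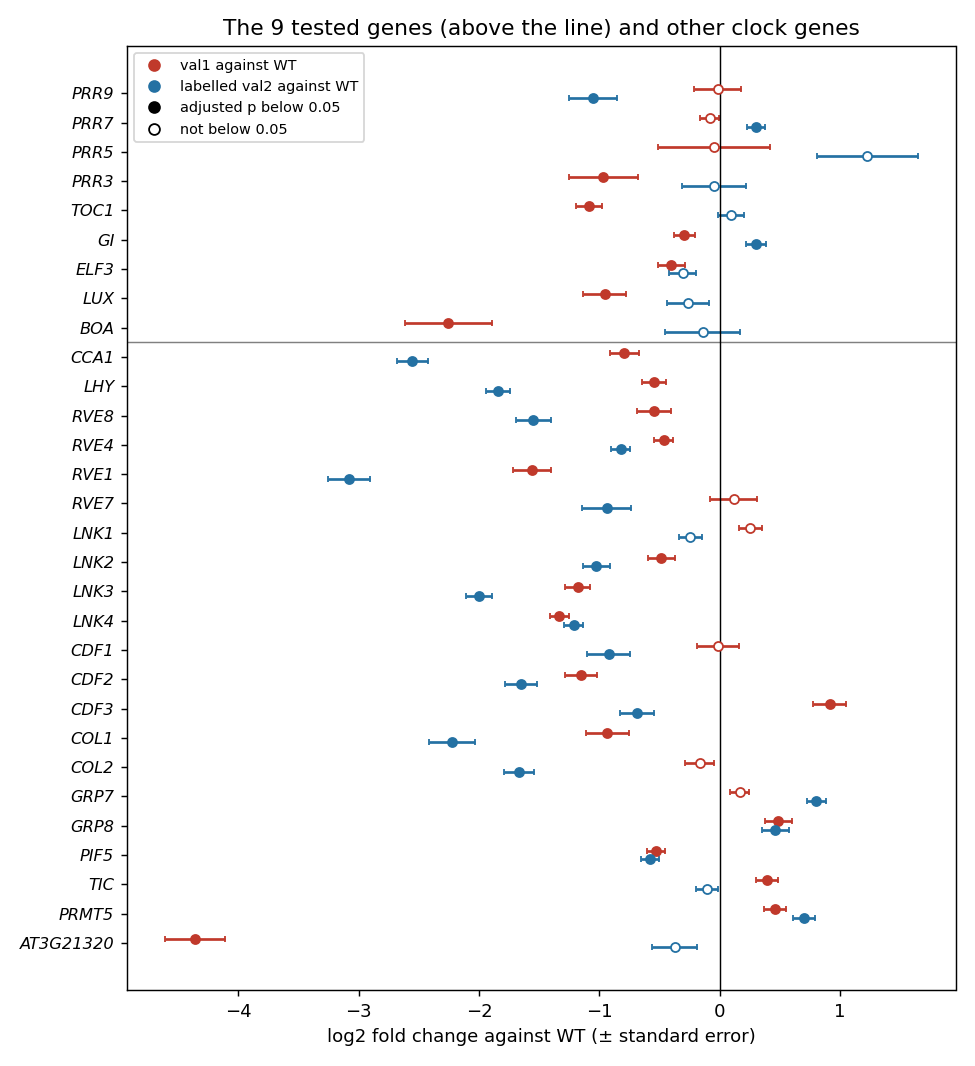
log2 fold changes against WT, with standard errors, of the 9 tested genes (above the line) and of other clock genes (below it), for *val1* and for the libraries labelled *val2*. Filled points have an adjusted p below 0.05; *CCA1*, *LHY*, *RVE1* and *LNK3* were lower in both, and AT3G21320 lies beyond -4 in *val1*.

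Of 21 regulators and partners of these genes, 19 were tested. In *val1*, 3 rose relative to WT and 5 fell, so 8 of 19 were called, which is near the 45.7% of all tested genes called. Those that rose were *TIC*, which adjusts the clock at dawn, *PRMT5*, an arginine methyltransferase whose loss alters splicing of *PRR9*, and the photoreceptor gene *PHYB*, with log2 fold changes of 0.39, 0.46 and 0.33. The largest fall was in AT3G21320, whose RefSeq product name is that of an EARLY FLOWERING protein and whose closest Arabidopsis match there is ELF3. AT3G21320 had 0.89 and 0.75 CPM in *val1*, against 10.2 and 15.7 CPM in the libraries labelled *val2* and 17.2 and 16.5 CPM in WT. Its log2 fold change against WT was -4.36 (SE 0.25, adjusted p = 2.88e-06) in *val1*. It was -0.38 (SE 0.18, adjusted p = 0.192) in the libraries labelled *val2*. *TCP21*, which encodes the *CCA1* repressor CHE and a partner of TOC1, fell in *val1* by 0.33 on the log2 scale (SE 0.09, adjusted p = 0.0127), and *TPL*, a corepressor gene whose product joins PRR proteins, fell by 0.39 (SE 0.08, adjusted p = 0.00295). Of the same 19 genes, *PRMT5* and *XCT* rose relative to WT in the libraries labelled *val2*, and 17 were not called, where 18.7% of all tested genes were called. *ZTL*, the F-box gene whose product degrades TOC1 and PRR5, was not called against WT in *val1* (log2 fold change 0.14, SE 0.10) or in the libraries labelled *val2* (-0.16, SE 0.10). *FKF1*, which binds GI to remove CDF proteins, had 0 and 0 counts in *val1*, 5 and 10 in libraries labelled *val2* and 6 and 7 in WT, and was not tested.

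Of 13 output genes, 12 were tested. In *val1*, 2 rose and 4 fell relative to WT, so 6 of 12 were called, near the 45.7% of all tested genes. For those labelled *val2*, 2 rose and 7 fell relative to WT, so 9 of 12 were called, against 18.7% of all tested genes. The *CDF* genes encode repressors of *CO* that GI and FKF1 remove. *CDF2* fell in both, with a log2 fold change of -1.16 (SE 0.13) in *val1*, against -1.65 (SE 0.13) in the libraries labelled *val2*. *CDF3* rose in *val1* (log2 fold change 0.91, SE 0.14) and fell in the libraries labelled *val2* (-0.69, SE 0.14), and the direct comparison of *val1* with those libraries gave 1.60 (SE 0.14, adjusted p = 4.18e-05). *COL1*, a clock-controlled relative of *CO*, fell in *val1* (log2 fold change -0.93, SE 0.18) and also in the libraries labelled *val2* (-2.23, SE 0.19). *GRP7*, an RNA-binding protein gene of the evening, had 94.0 and 84.0 CPM in *val1*, 135.3 and 141.7 CPM in libraries labelled *val2* and 78.7 and 80.1 CPM in WT. It passed the test against WT in the libraries labelled *val2* (log2 fold change 0.80, SE 0.08) and not in *val1* (0.16, SE 0.08), and the direct comparison of *val1* with those libraries gave -0.64 (SE 0.08, adjusted p = 0.000323).

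For each gene, the genes with the most similar pattern over the 6 libraries were found by the root mean square difference of log2 CPM centred on each gene's own mean, among about 15572 candidates with at least 5 CPM. *PRR7* had the closest neighbour, AT2G36410 at 0.01, and *ELF3* had AT2G46900 and *KAPP*, both at 0.02. *TOC1* had AT1G34750 at 0.04 and *CNBT1* at 0.05. *GI* had *TOPP4* at 0.04 and *NAC052* at 0.05, and *PRR3* had *DBR1* at 0.03 and *NPR1* at 0.05. *LUX* had *ZF3* and AT4G25800, both at 0.09. The neighbours of *PRR9* (*SPA3* at 0.13 and AT5G24580 at 0.15), *PRR5* (*XDH1* at 0.13 and *AGL19* at 0.18) and *BOA* (*ABCA7* at 0.17 and *KUP9* at 0.22) were more distant. The distance is not scaled by how much a gene varies. Its size thus also depends on a gene's amplitude and counts, and does not rank the genes by similarity to their neighbours. With 6 libraries in 3 groups many genes share any pattern, and no clock gene of the lists was among these neighbours.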

How the data were processed

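The 6 libraries were analysed, 2 each of *val1*, the libraries labelled *val2* and WT, grouped by the genotype in their titles. The authors made the deposited estimated counts from paired-end reads trimmed with cutadapt, mapped to TAIR10 with STAR and quantified on Araport11 genes by stringtie, without normalization; the kit was stranded, and the strand setting of the counting is not stated. The deposited TPM values of the authors cover 16383 genes, 7 of the 10 studied, and served as an alternative. Of 24369 entries, 77 without a gene identifier (at most 0.00266% of a library) were left out. Depth was 22635808 to 33474422 counts per library, and a count of 0 allows up to 3 counts, for counting error only.

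Counts, as whole numbers, were tested in R 4.3.3 with edgeR 4.0.16 (filterByExpr, TMM factors from 0.925 to 1.09, glmQLFit and glmQLFTest on all 6 libraries), leaving 21140 genes and 3 residual degrees of freedom; the biological coefficient of variation was 10.7%. Replicates differed by more than counting error. The code was tested on simulated data. Same-numbered replicates deviated together with correlations of only 0.0309 to 0.0406 over all genes, and the main fit used no pairing. Such a correlation cannot show a pairing that affects only some genes. Alternatives were DESeq2 1.42.0, other scalings, no filter, only the 2 groups compared, the replicate block, a 2-fold rule, limma 3.58.1 on log2(TPM + 1) and log2(TPM + 0.1) with and without a minimum of 1 TPM, and each library left out. Genes, promoters and overlaps came from RefSeq TAIR10.1, in which 99.56% of the genes were found, and plots from Python 3.11.15 and matplotlib 3.10.9.

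The text names the 10 genes, *VAL1* and *VAL2*, genes of 3 clock lists that passed the test in a comparison or are partners of the 10, and the 2 genes nearest in pattern to each of the 10 called in at least 1 comparison. *UGT76E1*, AT3G46650 and AT2G46670 were added for their overlap or shared sequence after the values were seen. The genes and lists were chosen with earlier results of these data known. Genes without a RefSeq symbol are named by locus.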

Additional observations from a re-analysis of the deposited data

How the results depend on the processing

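The call of *TOC1* and *BOA* in *val1* against WT was kept in every alternative run, and that of *LUX* in all but the 2-fold rule. Over the 441 values of single genes under alternatives, 357 kept their direction and side of the threshold, 60 lost the call and 24 changed sign. The 441 include results that were not called in the main fit and so had no call to lose. The 60 are thus a larger share of the called results alone. In *val1* against WT, 2 of the 9 genes passed the 2-fold rule, 3 of 7 tested passed with limma on log2(TPM + 1) and 3 with log2(TPM + 0.1), where 70.5% and 70% of all genes were called, and 3 to 6 passed with 1 library left out (3 without WT replicate 2 and 3 without *val1* replicate 1, where 33.4% and 35.8% of all genes were called). In the libraries labelled *val2* against WT, 1 passed the 2-fold rule, and 0 to 3 passed with 1 library left out; without either library labelled *val2*, edgeR called 0 genes, while 4 (without replicate 1) and 3 (without replicate 2) had an unadjusted p below 0.05; the share of all genes called was then 6.36% and 8.93%, against 18.7% with every library. DESeq2, run on all 6 libraries only, called 5 in *val1* against WT (*PRR3* lost) and 2 in the libraries labelled *val2* against WT (*GI* lost). It called 6 in *val1* against those libraries (*PRR3* and *PRR5* lost). In the same order, DESeq2 called 34.7%, 15.6% and 27.1% of 24292 genes, with genes lacking an adjusted p counted as not called. The edgeR shares of the main fit are of 21140 genes, so the 2 sets of shares have unlike denominators. In *val1* against those libraries, 4 passed the 2-fold rule, 5 passed with log2(TPM + 1), 5 with log2(TPM + 0.1) (50.1% and 49.7% of all genes), and 5 to 7 with 1 library left out.

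Scaling by library size alone shifted the all-gene median log2 fold change to 0.25 in *val1* against WT and 0.15 in *val1* against the libraries labelled *val2*, and the share of called genes that were lower to 28% and 33.3%, against 48.4% and 50.4% with TMM; in the libraries labelled *val2* against WT it was 36.3%, against 53.5%. Under it, in *val1* against WT, *PRR5*, *PRR7* and *PRR9* changed sign to 0.17, 0.13 and 0.20, and *GI* and *ELF3* lost their calls at -0.08 and -0.19. *PRR3* in the libraries labelled *val2* changed to 0.0336, and *ELF3* in *val1* against them to 0.0412. With TPM, *PRR7* in *val1* changed to 0.0876 (0.0892 with log2(TPM + 0.1)), *PRR3* in the libraries labelled *val2* to 0.0554 (0.0923 with log2(TPM + 0.1)), and *ELF3* in *val1* against them to 0.0139 (0.0153 with log2(TPM + 0.1)); the filter made no difference to these 3 values with log2(TPM + 1). With AT2G46670 added, *PRR9* in *val1* had 0.00778. With 1 library left out, in *val1* against WT *PRR5* ranged from -0.24 to 0.16 and *PRR9* from -0.36 to 0.27. For the libraries labelled *val2* against WT, *PRR3* ranged from -0.159 to 0.0872, *BOA* from -0.43 to 0.21 and *TOC1* from -0.052 to 0.239. None of these sign changes concerned a called gene, and the cause was not tested.

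With the replicate block, 6 of the 9 genes were called in *val1* against WT and 3 in the libraries labelled *val2* against WT. In *val1* against those libraries 7 were called, and *PRR5* was the call lost. The shares of all genes called were then 47.1%, 21.4% and 37.5%, against 45.7%, 18.7% and 35.7% without the block. Depth limits *ELF4*, *PRR5*, *PRR3* and *BOA*, which had at most 95 counts in a library.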
